A study of Drosophila melanogaster with 4 samples.

Results

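Isolated peaks are the places where the Abd-B-GFP fusion protein gave a called ChIP-seq signal with no other called peak close by. They were defined here by position alone: a peak on arm 2L, 3L, 3R or X was isolated when the stretches free of other peaks on its left and on its right were both 30000 bp or longer. By this rule 297 peaks were isolated, out of 3194 on the 4 arms and 4389 in the whole deposited list. The first and the last peak of each arm (8 in all) have only 1 neighbour and entered neither set, which left 2889 other peaks on the same arms for comparison. Peaks of the list outside these 4 arms, including any on arm 2R, were not part of the comparison.

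The study sequenced 2 ChIP libraries, precipitated with an antibody against GFP, and 2 input libraries, all from wandering third-instar larvae of the strain Abd-B-GFP. The labels give the genotype w; PBac{y[+]-attP-3B}VK00037 with a transgene in which GFP takes the place of the stop codon of the Abd-B genomic coding region, and the sex as unknown. All 4 libraries share this genotype, so no untagged control stands beside them, and the sources used here do not say whether the native gene was also present. The labels' protocol text names another stock (y; bw cn sp), and the sample characteristics were followed.

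Abd-B is a Hox gene of the bithorax complex. Its homeodomain protein gives the posterior segments of the fly their identity, and it acts on target genes through enhancers that may lie far from the promoter they serve. Hox proteins are known both for enhancers that hold groups of binding sites and for lone regulatory elements. Whole larvae were used, and Abd-B is expressed mainly in their posterior part, so a peak height averages over cells with and without the protein. Fewer bound cells and weaker binding per cell cannot be told apart.

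Every value below comes from 1 combined list without separate values per library. There is therefore no replicate error, the depth of each library is unknown, and no test over samples could be made. Intervals are exact binomial 95% intervals and cover counting error between peaks only. For a median, the interval is taken from the ranked values. Neighbouring peaks are not independent of each other, and the differences given between isolated and other peaks are descriptions without a test.

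Isolated peaks were found on all 4 arms. They numbered 81 on 2L, 81 on 3L, 75 on 3R and 60 on X. Arm 2L had the highest share of its peaks isolated, 12.7% of 639 (10.2 to 15.5%), and 3R had the lowest, 7.17% of 1046 (5.68 to 8.91%). The share was 9.75% of 831 on 3L (7.82 to 12.0%) and 8.96% of 670 on X (6.90 to 11.4%). Over the 4 arms together it was 9.32% (8.33 to 10.4%). The order of 2L and 3R is the reverse of their density in other peaks, of which 2L had 24.4 and 3R 34.8 per Mb of the span between the first and last peak. Isolated peaks themselves stood at 3.54 per Mb on 2L, 3.32 on 3L, 2.69 on 3R and 2.69 on X. X and 3L did not follow that order: X had fewer other peaks per Mb than 3L (27.4 on X, 30.7 on 3L) and also the lower share isolated.

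The smaller of the 2 gaps around an isolated peak had a median of 43396 bp, with quartiles at 35966 and 63673 bp. The larger gap had a median of 86963 bp and reached 631965 bp on 2L. The whole stretch from one neighbour to the next had a median of 143690 bp. Both gaps were 50000 bp or longer at 126 isolated peaks, and both were 100000 bp or longer at 21. Among the other peaks the smaller gap had a median of 2689 bp. The rule is set on this gap, so both sets are separated in it by definition.

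The cut at 30000 bp passes through peaks of many scores. Positions here and below are on FlyBase release 5, and the genes at them were not analysed here. Just inside it were a pair of neighbours on 3L, at 20778527 to 20779226 (score 28.96) and 20809233 to 20809445 (score 9.27), which share a gap of 30006 bp, and a 2L peak at 12586862 to 12587734 with a score of 96.1 and a gap of 30017 bp. Just outside it were a 3R peak at 18607146 to 18607537 (score 18.97, gap 29924 bp), an X peak at 3331950 to 3332150 (score 8.47, gap 29808 bp) and a 3R peak at 1568110 to 1568708 (score 28.62, gap 29719 bp).

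As a set, isolated peaks had slightly higher scores than the other peaks. The score, which the authors deposited with each peak, was given by the caller and is not defined in the file. It may depend on the background used as well as on the signal, so a higher score is not read here as stronger binding, and the strongest and weakest peaks below are those of highest and lowest score. Isolated peaks had a median score of 17.29 (14.81 to 18.46), against 15.03 (14.57 to 15.35) for the other peaks, and these intervals overlap. Quartiles were 11.45 and 32.21 in isolated peaks and 10.9 and 26.62 in other peaks. A score under 10 was held by 38 of 297 isolated peaks (12.8%, 9.22 to 17.1%) and by 514 of 2889 other peaks (17.8%, 16.4 to 19.2%). A score over 50 was held by 44 isolated peaks (14.8%, 10.98 to 19.4%) and by 331 other peaks (11.5%, 10.3 to 12.7%). Scores over 100 made up 3.70% of isolated peaks (11 peaks, 1.86 to 6.53%) and 2.98% of other peaks (86 peaks, 2.39 to 3.66%), and these intervals overlap.

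The difference in median score was largest on X. Isolated X peaks had a median score of 27.24 (18.18 to 35.58), against 16.59 (15.46 to 18.28) for the other X peaks. On 3R the medians were 16.44 (12.35 to 18.97) in isolated and 14.07 (13.67 to 14.74) in other peaks. On 2L they were 16.25 (13.29 to 20.53) in isolated and 15.09 (14.25 to 16.23) in other peaks, and on 3L 14.63 (13.32 to 17.82) in isolated and 14.85 (14.26 to 15.44) in other peaks. The difference, isolated minus other, was thus 10.64 on X, 2.37 on 3R, 1.16 on 2L and -0.22 on 3L. The intervals of both sets overlapped on each of the 4 arms, on X by a narrow margin. Without X the medians were 15.64 in isolated and 14.58 in other peaks.

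**Figure D1:**
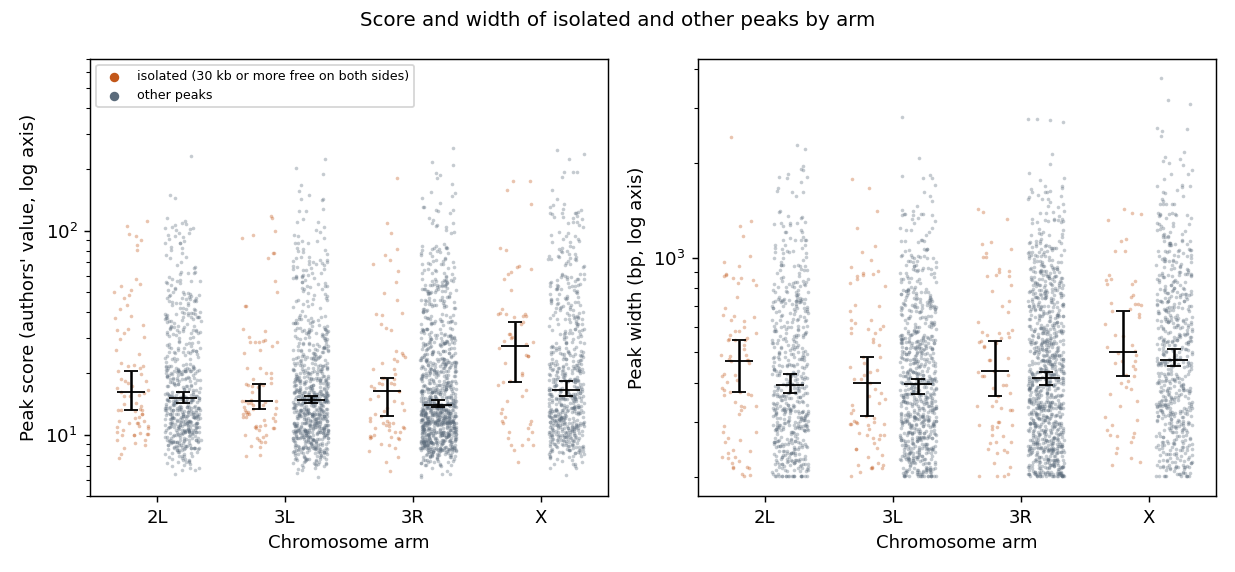
Score (left) and width in bp (right) of each isolated peak (orange) and each other peak (grey) on arms 2L, 3L, 3R and X, on log axes. Black marks give the median and bars its 95% interval from the ranked values. On X the median score was 27.24 in isolated and 16.59 in other peaks, while on 3L the medians nearly coincide.

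Over the 4 arms together, width showed a smaller relative difference than the score. The ratio of medians, isolated to other, was 1.09 for width and 1.15 for score. On 2L (1.19 for width, 1.08 for score) and 3L (1.01 for width, 0.99 for score) it was higher for width. On 3R and X it was higher for the score. Isolated peaks had a median width of 451 bp (411 to 488 bp), against 414 bp (402 to 426 bp) for the other peaks. The gap between the medians was 76.5 bp on 2L, 28 bp on X, 21 bp on 3R and 2 bp on 3L, with isolated peaks the wider each time. The intervals of both sets overlapped over the 4 arms together and on each arm. On 3L they were 312 to 484 bp in isolated and 369 to 412 bp in other peaks. Wide peaks of 1000 bp or more took similar shares of both sets, at 9.43% of isolated peaks (28 peaks, 6.36 to 13.3%) and 9.55% of other peaks (276 peaks, 8.51 to 10.7%). Peaks narrower than 300 bp made up 27.6% of isolated and 28.0% of other peaks. The widest isolated peak, at 2424 bp, was the one on 2L at 5799436 to 5801859, with a score of 80.73. It stood between much weaker peaks with scores of 7.38 and 11.03. Among the 4 isolated peaks of the lowest width, 201 bp, was one on 2L at 15333639 to 15333839 with a score of 10.57.

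At equal score, isolated and other peaks had nearly the same width. Peaks of the 4 arms were divided into 5 classes of equal size by score. In the class of highest scores (32.88 and above) the median width was 845.5 bp in isolated and 844.5 bp in other peaks. In the class of lowest scores (under 10.29) it was 264 bp in isolated and 258 bp in other peaks. The classes between gave 300, 378 and 571.5 bp in isolated peaks, against 311, 392 and 574 bp in other peaks. Isolated peaks were more often in the class of highest scores, at 24.2% (19.5 to 29.5%) against 19.6% (18.2 to 21.1%) of other peaks. They were less often in the class of lowest scores, at 15.5% (11.6 to 20.1%) against 20.1% (18.7 to 21.7%) of other peaks. The Spearman correlation of score with width was 0.763 over the 297 isolated peaks and 0.762 over the 2889 other peaks. All points share the same libraries and caller, so both correlations are descriptions.

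A long free stretch on 1 side did not go with a higher score. Peaks with 30000 bp or more free on both sides had the median score of 17.29 given above, those with it on 1 side had 14.85 (14.25 to 15.61, 1127 peaks), and those with it on neither side had 15.06 (14.57 to 15.46, 1762 peaks). On X the medians were 27.24, 16.59 and 16.61 in the same order. Over classes of distance to the nearest peak, the median score was 15.11 under 1 kb, 14.06 from 1 to 5 kb, 15.56 from 5 to 10 kb, 15.35 from 10 to 20 kb and 14.90 from 20 to 30 kb. It was 17.54 from 30 to 50 kb (13.94 to 19.92), 16.94 from 50 to 100 kb (14.59 to 22.38) and 17.64 at 100 kb or more (12.66 to 29.93). All 3 classes of isolated peaks were thus above all 5 nearer classes, and their intervals overlap with those of the nearer classes. Within the isolated peaks, distance to the nearest peak and score had a Spearman correlation of 0.08 over 297 peaks, and from -0.07 on 3R to 0.15 on X.

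**Figure D2:**
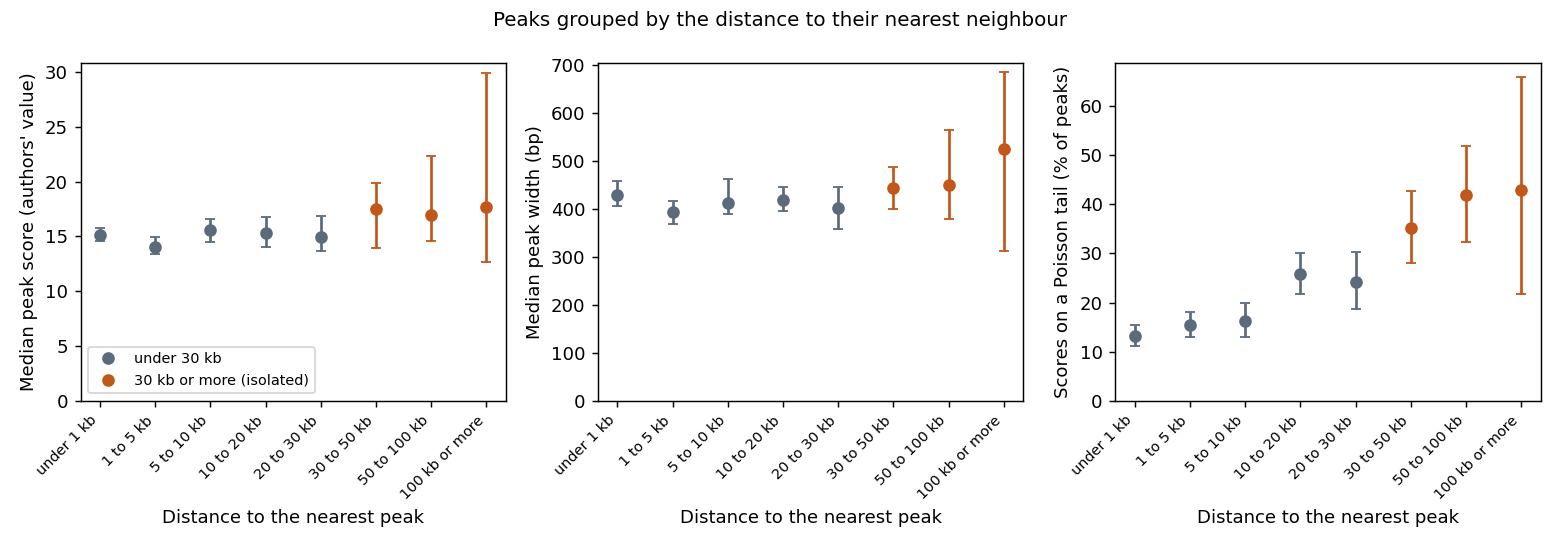
Median score (left), median width in bp (middle) and percent of peaks whose score lies on a Poisson tail (right) in 8 classes of distance to the nearest peak. Bars are 95% intervals, grey classes are under 30 kb and orange classes are isolated. The share on a tail was 13.2% under 1 kb and 42.9% at 100 kb or more, with 24.2% from 20 to 30 kb just under the 25.7% of the class before it, while the median score stays between 14.06 and 17.64.

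Isolated and other peaks stood furthest apart in the steps on which their scores fell. As judged from the values, a part of the scores falls on steps of a Poisson tail probability on the −log10 scale. With 1 background rate of 66.43 fragments for the whole list, 881 of the 4389 scores matched such a step at 2 decimals. MACS scores a peak against a background for the whole genome unless its surroundings have a higher one. If the score is of this kind, one that lies on a step (below, on a Poisson tail) would come from a peak scored against the background of the whole genome, apart from chance matches. The score of 113 of 297 isolated peaks lay on a tail (38.0%, 32.5 to 43.8%), against 493 of 2889 other peaks (17.1%, 15.7 to 18.5%), and these intervals do not overlap. By coincidence of hundredths, 2.79% of isolated and 2.90% of other scores would match. The rate was picked for its number of matches, and the best rate more than 0.1 away from it matched 330 of the 4389 scores.

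The higher share held on each arm. On 3R, 30 of 75 isolated peaks and 15.7% of other peaks had such a score. The share was 40.7% in isolated and 19.6% in other peaks on 3L, 38.3% in isolated and 16.9% in other peaks on X, and 33.3% in isolated and 16.3% in other peaks on 2L. It also held in each of the 5 score classes, where it ran from 31.0 to 44.1% in isolated and from 12.4 to 22.8% in other peaks. Peaks with a long free stretch on 1 side had 23.0% (20.6 to 25.6%) and those with none had 13.3% (11.7 to 15.0%), so the share was higher with more long free sides. By distance, it was 13.2% under 1 kb, 15.4% from 1 to 5 kb, 16.2% from 5 to 10 kb, 25.7% from 10 to 20 kb and 24.2% from 20 to 30 kb. It was 35.1% from 30 to 50 kb, 41.9% from 50 to 100 kb and 42.9% at 100 kb or more. The local background of single peaks was not used here, and its part in this difference was not tested. On this reading, a score equal to the isolated median of 17.29 stands for 147 fragments, 2.21 times the background rate. That conversion holds only for a peak scored against this rate, and 184 isolated peaks had scores that were not on a tail.

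The strongest isolated peak had a score of 181.6 and a width of 1401 bp, on 3R at 19606564 to 19607964. Its nearest neighbour was 63874 bp away, on the other side were 178517 bp without a peak, and that neighbour was the weakest isolated peak of 3R, at 19671839 to 19672200 with a score of 6.66. The next 4 by score were all on X. They lay at 16110545 to 16111926 (score 176.49, 1382 bp wide, 60980 bp from its nearest neighbour), at 16970635 to 16972060 (176.26, 1426 bp, 69768 bp), at 18030779 to 18031830 (158.58, 1052 bp, 51577 bp) and at 18757652 to 18759036 (134.71, 1385 bp, 65292 bp). These are all 4 isolated X peaks with a score over 100, and they fell between 71.7 and 83.6% of the span of that arm. On X, 4 of 60 isolated peaks had such a score (6.67%, 1.85 to 16.2%) and so had 30 of 610 other peaks (4.92%, 3.34 to 6.95%).

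The remaining 5 of the 10 strongest were on the autosomes. On 3L, a score of 118.92 was found at 16284719 to 16285703 and one of 116.12 at 12685583 to 12686986. On 2L, a score of 111.21 was found at 18150938 to 18151906 and one of 105.16 at 8825149 to 8826038, the second of them 71581 bp from its nearest neighbour. The other 3R peak, at 11798097 to 11799526, scored 109.2 over a width of 1430 bp. Of the 10, 7 were 1000 bp wide or more. For 5 of the 10 the score lay on a Poisson tail. If these 5 were scored against the fitted background rate, they would stand for 312 to 409 fragments, 4.70 to 6.16 times that rate. None of the 10 strongest peaks of the 4 arms was isolated (0 of 10), and 11 of the 100 strongest were. Both counts are near the share of 9.32% isolated over the 4 arms together. The strongest isolated peak ranked 17 of 3194.

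The most isolated peaks had ordinary scores. The one with the largest smaller gap lay on X at 21501206 to 21501890, with a score of 34.93 and 261435 and 343093 bp free on its sides. It was followed by a 3L peak at 23707842 to 23708153, with a score of 14.25 and 375438 and 227501 bp free. Both stood near the end of their arm, at 95.9 and 96.6% of the span. On 2L, the one at 4614266 to 4614639 had a score of 11.07 and at least 155463 bp free on both sides, the one at 4031262 to 4031907 a score of 18 and 141108 bp, and the one at 1420312 to 1420659 a score of 12.66 and 134419 bp.

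The X peak among them, at 17196538 to 17197185, scored 12.3 with at least 154144 bp free. On 3R, the one at 8256706 to 8257042 had a score of 14.93 and 149631 bp, and the one at 4343540 to 4344011 a score of 11.37 and 141257 bp. The 3R peak at 19427166 to 19428046 was the strongest of these 10, with a score of 56.08 and 128656 bp free. Its next neighbour on the right was the strongest isolated peak of all. The last of the 10, on 3L at 10509094 to 10509965, scored 17.64 with 127882 bp free. Scores of these 10 ran from 11.07 to 56.08. A score over 100 was held by 3.70% of all isolated peaks. It was held by 0 of the 21 peaks with 100000 bp or more on both sides, too few to show a difference. A count of 0 is read here as allowing up to 3 counts, or 14.3% of these peaks, in place of the exact interval, whose upper end is 16.1%.

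**Figure D3:**
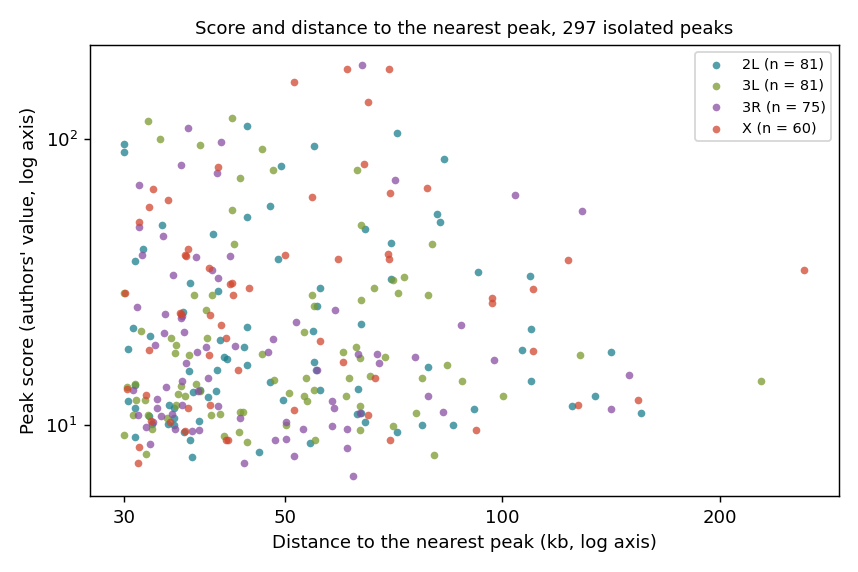
Score against the distance to the nearest peak in kb for the 297 isolated peaks, both on log axes, coloured by arm. High scores appear mostly at distances under 100 kb, where most isolated peaks lie, and the peak with 261435 bp on its nearer side had a score of 34.93.

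The weakest isolated peaks of the other arms had scores near the lower end of the list, which began at 6.18 on these arms. These were 7.39 on X (7591037 to 7591347), 7.72 on 2L (3377111 to 3377368) and 7.88 on 3L (15721160 to 15721425). An isolated peak scored above both its neighbours in 105 of 297 cases (35.4%, 29.9 to 41.1%) and below both in 94 (31.6%, 26.4 to 37.3%). For other peaks these shares were 33.2% (31.5 to 34.98%) and 33.5% (31.8 to 35.3%), and the intervals of both sets overlap.

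Isolated peaks often followed one another. Of the 297, 196 had at least 1 isolated neighbour (65.99%, 60.3 to 71.4%) and 101 stood alone between peaks that were not isolated. They formed 47 runs of 2, 14 runs of 3, 8 runs of 4, 2 runs of 5 and 3 runs of 6. The runs with the most peaks, 6 each, were on 3R at 15052104 to 15619039 (567 kb, scores from 8.97 to 22.99), on 2L at 9494002 to 9948578 (455 kb, scores from 13.28 to 58.36) and on X at 3734850 to 4108818 (374 kb, scores from 11.75 to 35.58). Median scores in these 3 runs were 10.86, 17.20 and 25.52. A run of 4 on 3R, at 19297972 to 19672200, held both the strongest and the weakest isolated peak of that arm. A gap of 30000 bp counts for the peaks on both its sides, so neighbours tend to be isolated together by the rule itself.

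Along the arms, isolated peaks were found in nearly every stretch. In whole bins of 1 Mb they numbered 3.05 ± 1.91 (SD over 94 bins), from 0 to 8, and the other peaks 30.03 ± 13.4. Only 5 of the 94 bins held none. Bins with fewer than 20 peaks had 3.57 ± 2.23 isolated peaks (SD over 7 bins), bins with 20 to 39 peaks had 2.95 ± 1.82 (65 bins) and bins with 40 or more had 3.18 ± 2.13 (22 bins). Dense bins thus held about as many isolated peaks as sparse ones, although their shares of the peaks in these bins were 28.1%, 10.1% and 6.26% in the same order.

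The span of each arm was divided into 5 parts of equal length. In the most distal part lay 17.8% of isolated peaks (53 peaks, 13.7 to 22.7%) and 23.2% of other peaks (671 peaks, 21.7 to 24.8%). The part next to the centromere held 22.9% of isolated peaks (68 peaks, 18.2 to 28.1%) and 16.9% of other peaks (487 peaks, 15.5 to 18.3%). By arm, the difference there was 13.9 percentage points on 3L, 6.49 on 3R, 3.06 on X and -0.32 on 2L. In the distal part it ran from -4.18 points on 3R to -7.19 on X. Fewer other peaks lay next to the centromere than in the distal part, and the gap rule itself isolates a larger share where peaks are sparse. How far this enters the shares isolated was not tested. The share of peaks that were isolated was 12.3% next to the centromere (9.64 to 15.3%) and 7.32% in the distal part (5.53 to 9.47%). This order counts 3R from its other end, since the coordinates of 3R start at the centromere and those of 2L, 3L and X run toward it, and it was chosen after the values had been seen. In the planned order, that of the coordinates, the first part held 20.5% of isolated (16.1 to 25.6%) and 23.2% of other peaks (21.7 to 24.8%). The last held 20.2% of isolated (15.8 to 25.2%) and 16.9% of other peaks (15.5 to 18.3%). In each of these parts the intervals of both sets overlap. Arm 3L decides the difference for the last part: on 3L that part held 23 of its 81 isolated peaks (28.4%) and 14.5% of its other peaks. Without 3L the difference for the last part was -0.54 percentage points, against 3.34 with it. Isolated peaks in the distal and the centromere-proximal part had median scores of 17.38 and 16.43 and median widths of 401 and 497.5 bp.

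**Figure D4:**
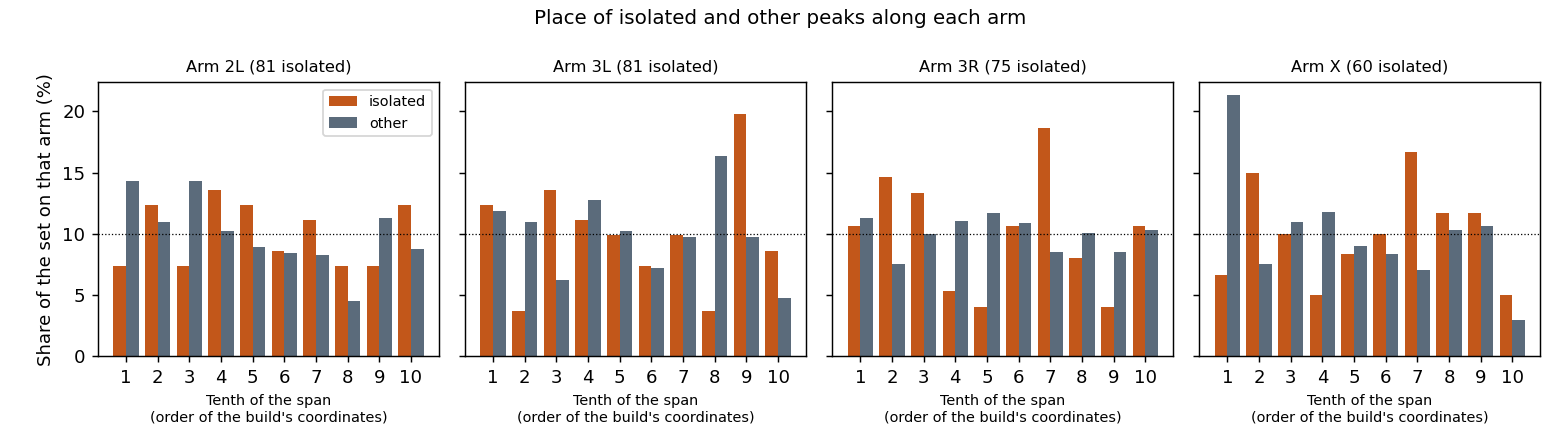
Percent of the isolated (orange) and of the other peaks (grey) of each arm in each of 10 equal parts of the stretch from its first to its last peak, in the order of the coordinates. The dotted line marks an even spread of 10%. On 3L the last 2 parts together held 28.4% of isolated and 14.5% of other peaks, while the first part of X held more of the other than of the isolated peaks.

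On X, the higher score of isolated peaks was seen in 4 of 5 parts of the arm. From the start of the coordinates, the median score of isolated peaks was 27.78, 15.57, 37.71, 24.75 and 21.79 in the 5 parts, and that of other X peaks was 15.07, 17.36, 17.91, 17.87 and 18.11. Each part held from 9 to 17 isolated peaks, and their intervals were wide. These ran from 11.75 to 39.34, 10.29 to 39.58, 9.53 to 51.32, 18.39 to 57.89 and 10.86 to 134.71 in the same order. Only in the fourth part did the interval lie above the median of the other peaks. In all 5 parts it overlapped the interval of the other peaks. On 3L the isolated peaks of the last part had a median score of 13.71 and 0 of 23 had a score over 50, where 3 counts would be 13.0%. Of the other peaks there, 9 of 109 did.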

How the data were processed

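The authors deposited 1 peak list for the series. Its coordinates are on FlyBase release 5 and its source column names MACS, per the file headers. CASAVA 1.7.0.2 and 1.7.0.3, BWA, MACS2 and BDGP5 are named per the submitters' processing notes. The sources used here give neither the call threshold, nor the read filters, nor how libraries were combined. Each peak has 1 score, the peak caller's value as the authors deposited it.

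Gaps are the bases between the end of one peak and the start of the next. Peaks on the 4 arms did not overlap (0 cases). Shares have Clopper-Pearson intervals. The Poisson rate was fitted on all scores between 2 and 300 in steps of 0.01, then 0.0005. Gap counting and the rate fit were checked on simulated data. Python 3.11.15, numpy 2.4.6, pandas 2.3.3, scipy 1.17.1 and matplotlib 3.10.9 were used.

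The members, the rule and the named peaks (10 by score, 10 by gap, the strongest and weakest of each arm, the widest, the narrowest and 3 on each side of the cut) were chosen with earlier results of these data known. The link of sparse placement with Poisson-tail scores was known too and is no independent support. With no release 5 genome or annotation at hand, genes, motifs and sequences at the peaks were not analysed here. Alternatives were gaps of 20 and 50 kb, midpoint gaps, a stricter list, merged peaks, arms or arm ends left out, and a tolerance of 0.01.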

Additional observations from a re-analysis of the deposited data

Results flagged for a closer look

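By the same gap rule, chromosome 4, which the comparisons above leave out, held 7 isolated peaks among 38 with neighbours on both sides (18.4%, exact 95% interval 7.74 to 34.3%). It was picked because it shows such peaks in sequence outside the 4 arms, with no control sample to set beside them. Their median score was 15.59, against 28.74 for the other peaks of that chromosome, the opposite order to X. That difference was not tested. The strongest, with a score of 165.52, was found at 436078 to 436843, and the smaller gap reached no more than 48962 bp.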

How the results depend on the processing

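The higher median score of isolated peaks kept its direction in all 10 alternatives run, with differences from 0.81 to 2.85. These alternatives reuse the same list. With the interval of the isolated median, the difference ran from -0.22 to 3.43 in the main setting. The lower end was negative in every alternative except the one without 3L (0.55 to 5.16). The higher share of Poisson-tail scores kept its direction in all 3 alternatives run for it, from 15.6 to 24.0 percentage points. A gap of 20 kb gave 520 isolated peaks (16.3% of peaks) with 32.1% on a tail, and the difference for the first part of the arms turned to 0.58 points. A gap of 50 kb gave 126 (3.95%). Merging peaks under 1 kb apart moved the share to 12.9% and the median width to 510 bp. Among peaks at or above the median score of 15.46, 25.5% were isolated, with a median score of 28.63 and a median width of 633 bp, and the width difference turned to -38.5 bp. Of the 393 isolated there, 164 (41.7%) were isolated in the full list too. These are all of its 297 isolated peaks with such a score (55.2%), since leaving peaks out cannot shorten a gap. The other 229 (58.3%) were isolated in the stricter list only, so isolation depends on the call threshold, which is unknown. Without 3L the difference for the last part turned to -0.54 points. The causes were not tested, except that wider gaps and fewer peaks change the counts by construction. Counting the 5 parts from the distal end, added after seeing the data, gave -5.38 and 6.04 points. No paired analysis was possible because the list keeps no library apart, and no replicate could be left out.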
